A study of Mus musculus with 8 samples.

Results

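The genes described are 86 protein-coding genes of the mouse named as ribosomal proteins, of 21938 protein-coding genes in all. They were taken by symbol from the GRCm38 annotation (Rpl or Rps followed by a digit, Rplp0 to Rplp2 and Rpsa, without pseudogenes and the Rps6k kinases). Of these, 46 encode proteins of the large ribosomal subunit, 31 encode proteins of the small subunit, and 8 are divergent or tissue-restricted paralogs (Rpl22l1, Rps27l, Rps27rt, Rpl10l, Rpl36al, Rpl39l, Rpl3l and Rpl7l1). The name rule also took Rps19bp1, which encodes a protein that binds Rps19 and is not part of the ribosome. It leaves out ribosomal protein genes with other symbols. The measurements are contacts of their promoters in H3K27ac HiChIP, an assay that joins DNA ends that were neighbours in the nucleus and enriches fragments carrying acetylated lysine 27 of histone H3, a mark of active promoters and enhancers.

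The 8 libraries came from 4 mouse embryonic stem cell lines, each with 2 technical replicates. B6 was line B6 5-1 of C57BL/6J, and D2 was line D2 5-5 of DBA/2J, both inbred strains. B6-13D2 was line QJ 6-1 of the congenic strain B6.D2-(rs30079041-rs51756099)/Bakr, which carries a D2 interval of chromosome 13 in the B6 genome. D2-13B6 was line XE 2-4 of the reciprocal congenic strain D2.B6-(rs29224292-rs13469455)/Bakr, with a B6 interval in the D2 genome; the series text names another marker for one end of that interval. All lines were grown with serum, LIF, PD0325901 (an inhibitor of the kinase MEK) and CHIR99021 (an inhibitor of the kinase GSK3). The libraries held 737955 to 1425304 counts each, with 737955 to 952040 in B6 and D2 and 982278 to 1425304 in the congenic lines. Each genotype was 1 cell line, and the tests below compare these lines against the spread between libraries of the same line, which are labelled technical replicates, so that this spread leaves out that between cultures or lines. Promoter anchors were present for 15 of 16 embryonic stem cell markers (Esrrb had none), with summed levels of 3242 to 4569 counts per 1000000 (CPM) in a library. The fibroblast markers, for feeder cells, had anchors at 5 of 8 genes and summed to 31.3 to 52.0 CPM, while 1 of 6 primitive endoderm markers and 1 of 4 mesendoderm markers had one.

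Ribosomal proteins are made in equal amounts from genes scattered over most chromosomes, and they are among the most strongly transcribed genes of dividing cells. Their mRNAs start with a run of pyrimidines, the TOP motif, through which mTOR signalling controls their translation. Their promoters are compact and mostly lack a TATA box, and factors of the ETS family, YY1 and SP1 are known to bind many of them.

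RefSeq promoter windows of 300 bases (250 before and 50 after the start, GRCm38.p6) were at hand for 66 of the 86 genes. The 5 genes whose anchors differed between D2 and B6 and whose RefSeq start lay within 100 bases of the annotated one are shown first, then the genes with the highest and the lowest contact level, Rpl7l1 and Rpl22l1. Each line runs from 100 bases before the start to 20 after it, and capitals mark the longest run of C and T that touches the stretch from 10 bases before to 20 after the start.
Rpl28 (chr7:4792865-4792984, plus strand): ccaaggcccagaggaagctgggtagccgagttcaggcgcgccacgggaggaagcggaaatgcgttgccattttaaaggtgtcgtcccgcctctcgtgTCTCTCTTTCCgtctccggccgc
Rps7 (chr12:28635934-28636053, minus strand): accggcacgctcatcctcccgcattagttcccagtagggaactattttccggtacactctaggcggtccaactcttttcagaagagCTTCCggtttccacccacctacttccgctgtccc
Rpl38 (chr11:114668480-114668599, plus strand): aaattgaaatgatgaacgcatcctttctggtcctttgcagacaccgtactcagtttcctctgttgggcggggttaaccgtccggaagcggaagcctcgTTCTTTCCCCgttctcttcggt
Rpl39l (chr16:10170128-10170247, plus strand): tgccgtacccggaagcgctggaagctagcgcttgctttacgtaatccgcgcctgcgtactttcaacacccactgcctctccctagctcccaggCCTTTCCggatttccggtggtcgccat
Rps12 (chr10:23787190-23787309, minus strand): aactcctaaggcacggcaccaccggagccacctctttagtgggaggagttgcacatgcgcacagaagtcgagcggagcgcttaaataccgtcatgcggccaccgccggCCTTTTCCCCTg
Rpl7l1 (chr17:46782637-46782756, minus strand): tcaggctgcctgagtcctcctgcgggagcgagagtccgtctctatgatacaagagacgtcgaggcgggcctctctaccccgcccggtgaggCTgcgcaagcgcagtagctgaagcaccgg
Rpl22l1 (chr3:28805408-28805527, plus strand): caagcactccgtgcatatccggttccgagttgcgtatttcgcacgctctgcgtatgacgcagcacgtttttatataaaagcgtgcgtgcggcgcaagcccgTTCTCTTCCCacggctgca
The pyrimidine run had 11 bases in Rpl28 and in Rps12, 10 in Rpl38 and in Rpl22l1, 7 in Rpl39l, 5 in Rps7 and 2 in Rpl7l1.

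A run of at least 7 pyrimidines at the start was present in 34 of the 66 windows (51.5%), against 22.5% of the 9126 windows of other protein-coding genes with an anchor and 23.7% of all 16456 other protein-coding windows. The letters CCGGAAG, bound by ETS factors, were found on either strand in 25 ribosomal protein windows (37.9%), against 19.0% of other windows with an anchor and 12.2% of all others. Rpl39l, Rps7 and Rpl38 held them within the printed stretch, and Rpl28 and Rps12 did not hold them in the window. AAGATGG, bound by YY1, was in 13.6% of the ribosomal protein windows, against 7.82% of others with an anchor and 6.40% of all others. GGGCGG (SP factors) was in 60.6%, against 62.5% of others with an anchor and 48.2% of all others. CACGTG (the E-box bound by MYC) was in 7.58%, against 10.3% and 8.09%. TATAAA was in 9.09%, against 7.54% and 12.9%, and Rpl22l1 held it in the printed stretch. These are matches of letters on either strand, they may overlap one another, and they were not tested as sites.

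A loop is a pair of anchors on 1 chromosome with a count of read pairs in each library, and an anchor is a run of touching 5-kb bins. Every one of the 86 genes had an anchor within 5 kb of its start, against 53.9% of the other 21852 protein-coding genes (11787 genes). The start lay inside the anchor for 83 genes, and the exceptions were Rps14 and the paralogs Rpl3l and Rps27rt. The 86 genes fell on 85 anchors, because 2 anchors each held a pair of the genes (Rps2 and the muscle paralog Rpl3l in one of them), while the paralog Rps27rt lay within 5 kb of a second anchor. Other lists of housekeeping genes were close to this: 96.2% of 78 mitochondrial ribosomal protein genes, 90% of 40 proteasome genes, 92.6% of 68 translation factor genes and all 42 ribosome biogenesis genes had an anchor.

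The contact level of an anchor is the sum of its loop counts, scaled to CPM by the library's total over all anchors and its TMM factor. The median level was 65.0 CPM over the ribosomal protein genes and 28.6 over other protein-coding genes with an anchor. The anchors were also wider, with a median of 15 kb against 10 kb, and per kb the medians were 4.39 and 3.41 CPM. The small subunit genes had a median of 84.5 CPM, the large subunit genes 58.2 and the paralogs 38.6. For comparison, the median was 58.9 CPM for translation factors, 51.1 for ribosome biogenesis genes, 47.6 for proteasome genes, 37.7 for mitochondrial ribosomal protein genes, 112 for other genes with TOP mRNAs and 44.5 for regulators of ribosomal protein genes. These are descriptions of the lists with no test.

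Levels differed 108-fold between the extremes. The highest level, 655 CPM, was at Rpl7l1, a paralog of Rpl7 whose 55-kb anchor (chr17:46770001-46825000) also holds the start of 2310039H08Rik. Also high were Rpl3, whose protein reaches towards the peptidyl transferase centre (431 CPM, 45-kb anchor with Syngr1), Rps28 (319.9 CPM, 30-kb anchor with Kank3 and Ndufa7) and Rpl28 (308 CPM). The lowest levels were at Rpl22l1 (6.06 CPM), the testis paralog Rpl10l (7.18 CPM) and the X-linked Rps4x (9.02 CPM). The order of these last 3 was not resolved, since the 8 libraries ran from 3.3 to 9.79 CPM at Rpl22l1, from 3.68 to 10.7 at Rpl10l and from 4.50 to 11.6 at Rps4x. An anchor level is not the level of 1 promoter: 54 of the 86 genes shared their anchor with the start of another protein-coding gene, and 32 were alone in it.

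**Figure D1:**
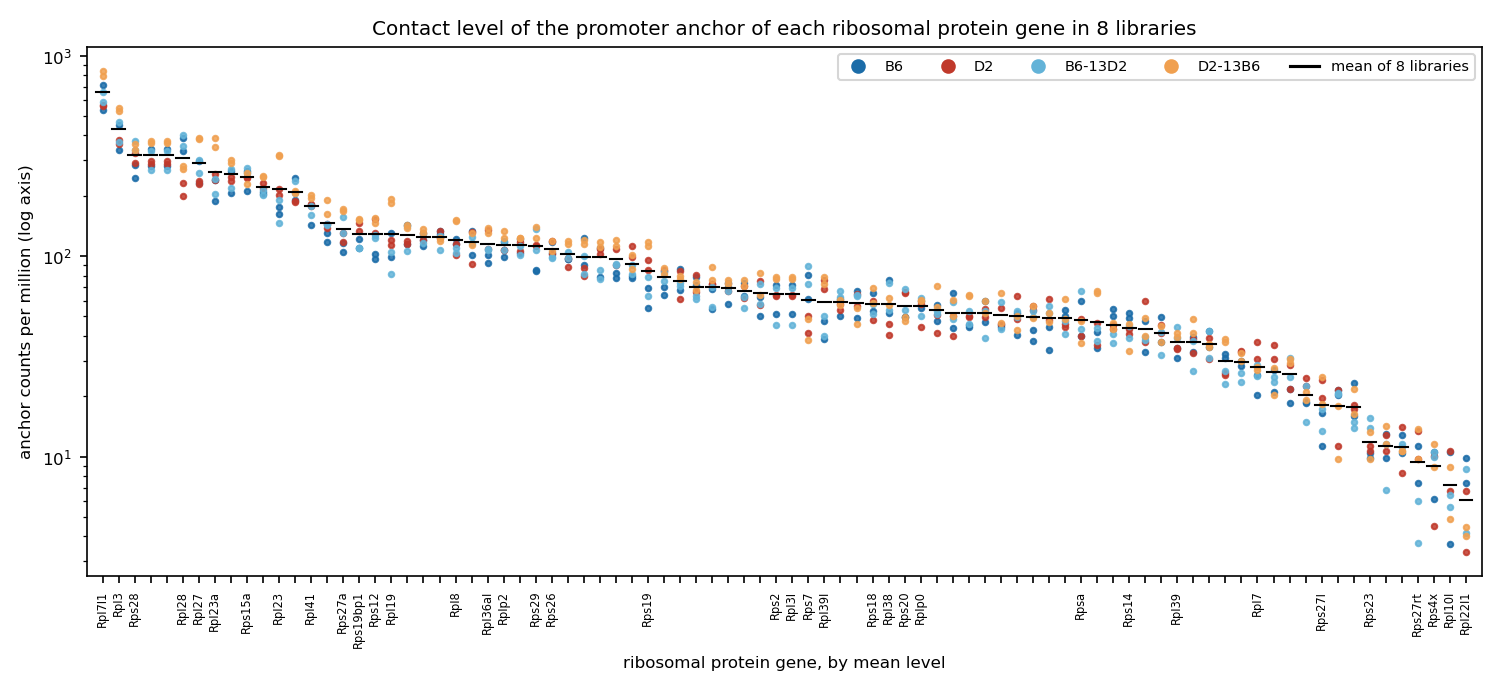
Contact level of the promoter anchor of each ribosomal protein gene, in CPM on a log axis, with all 86 genes ordered by their mean and those named in the text labelled. Each point is 1 of 8 libraries, coloured by line, and the black bar is the mean of the 8. The means run from 655 at Rpl7l1 to 6.06 at Rpl22l1, and for most genes the 4 lines lie close together against that range.

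Ribosomal protein anchors took part in 4366 of the 415681 loops and in 1.27% to 1.54% of the counts of a library. For the shares below each loop was counted once, and loops touching a ribosomal protein anchor were left out of the other group. A loop joining other protein-coding anchors at both ends thus entered once, although it belongs to both anchors. Only 0.255% of the ribosomal protein loops between anchors had such anchors at both ends, so the groups were not counted alike. Contacts of at least 100 kb made up 37.2% to 41.5% of their counts (39.0% ± 1.46, mean ± SD over 8 libraries), against 27% to 32.5% (29.4% ± 2.02) for other protein-coding anchors. Contacts inside a single anchor made up 18.3% to 21.3%, against 28.6% to 32.6%. In both measures, which are shares of summed counts, the ranges of both groups of anchors did not overlap. The single counting of loops raises the inside share of other protein-coding anchors, so that gap is wider than a count from each anchor would give. Its effect on the share at 100 kb or more was not worked out. Counted per anchor the order was the other way: 67.1% of ribosomal protein anchors had any contacts inside the anchor, against 27.9% of other protein-coding anchors. Counted pairs joined bins at least 10 kb apart, so narrow anchors can hold no such contacts, and the median widths were 15 kb and 10 kb. Of the loops from a ribosomal protein anchor to another anchor, 50.3% led to an anchor of a protein-coding start, and these held 70.8% of the counts. The values for other protein-coding anchors were 30.7% and 39.4%, which the single counting of loops lowers. How large the gap is when both ends of a loop are counted was not worked out. The median ribosomal protein anchor had 52 loops, against 35. Anchor widths were put aside by taking the 5-kb bin of each start. The ribosomal protein bins had 1.11 times the downstream contacts of other start bins at 10 to 25 kb and 1.71 times at 100 to 200 kb. Between these, the ratios were 1.26 at 25 to 50 kb and 1.22 at 50 to 100 kb. Upstream the 4 ratios, from near to far, were 1.10, 1.24, 1.23 and 1.54. None of these differences was tested, since genes are not replicates.

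**Figure D2:**
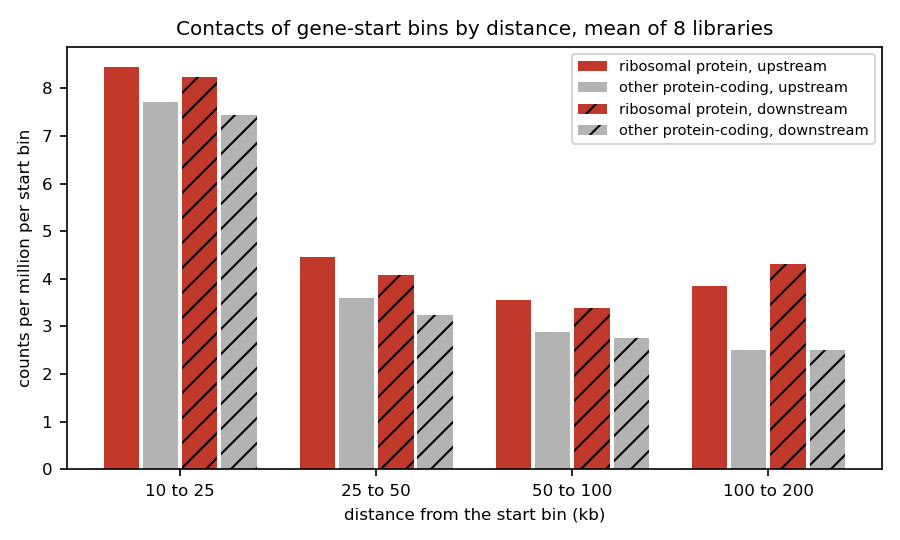
Contacts of the 5-kb bin that holds a gene start, in CPM per start bin, by distance from that bin, as the mean over 8 libraries; red bars are ribosomal protein genes, grey bars other protein-coding genes, and hatching marks the downstream side. At 100 to 200 kb downstream the ribosomal protein bars reach 4.30 and the others 2.51.

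Individual genes lay far from these shares. At Rps7, 8.85% of the counts spanned at least 100 kb, the lowest share among the 86 genes. The long contacts with the highest level joined Rpl3 to Mief1, 130 kb away, with counts of 95 and 55 in B6, 74 and 59 in D2, 67 and 117 in B6-13D2 and 142 and 153 in D2-13B6. Others with high levels joined Rps27a to Rtn4 (155 kb, 75.0 CPM on average), Rpl3 to Cbx7 (150 kb, 61.8 CPM) and Rps15a to Smg1 (125 kb, 41.3 CPM). None of these 4 loops passed the test in any of the comparisons below (smallest edgeR FDR 0.13).

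Loops between anchors of ribosomal protein genes were few. There were 11 loops with a ribosomal protein anchor at each end, 0.255% of their 4309 loops between anchors, and 1 of these joined both anchors of Rps27rt. The strongest joined Rps29 and Rpl36al, neighbours 20 kb apart on chromosome 12, with 640 counts over the 8 libraries. Rpl3 and Rps19bp1 followed (160 kb, 244 counts), then Rpl41 and Rps26 (82.5 kb, 79 counts), Rps28 and Rps18 (140 kb, 59 counts) and Rpl23 and Rpl19 (252.5 kb, 46 counts). Several of these anchors also hold starts of other genes, so a loop cannot be given to the ribosomal protein gene of the pair.

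The 4 lines combine 2 background genomes with 2 alleles of the chromosome 13 interval, which gives 6 comparisons. The parental lines were compared (D2 against B6), and each congenic line was set against the parental line of its background (B6-13D2 against B6, and D2 against D2-13B6, so that the D2 allele comes first). An interval effect took the mean of those last differences, a background effect took the mean difference of D2-background from B6-background lines at a given allele, and an interaction took the difference between the interval effects. They share libraries, so their results are not independent of each other. All 85 ribosomal protein anchors passed the count minimum and were tested in 1 fit with every other anchor, 21211 in all. An anchor with a false discovery rate (FDR) under 0.05 over all of them is called, and fold changes are on the log2 scale.

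Most ribosomal protein anchors were not called between the lines. In D2 against B6, 6 of 85 were called, 3 higher and 3 lower, beside 11.8% of all anchors (5.64% higher, 6.16% lower) and 9.75% of anchors of other protein-coding genes. The averaged background effect, which uses all 8 libraries, called 20, with 17 higher and 3 lower in the D2 background, beside 24.8% of all anchors and 22.2% of other protein-coding ones. The shares of 7.06% and 23.5% were thus no higher than those of all anchors, and the second was above the 22.2% of other protein-coding ones. By direction, the background effect called 20% of ribosomal protein anchors higher, beside 11.9% of all anchors and 12.7% of other protein-coding ones. It called 3.53% of them lower, beside 12.9% and 9.54%. The median log2 difference for the background was 0.13 over the ribosomal protein anchors and 0.05 over other protein-coding anchors. Of the 20 called, 5 lie on chromosome 11, where the median of the 709 other protein-coding anchors was 0.30 and which is taken up below. With DESeq2 in place of edgeR, 2 of the 6 were called in D2 against B6, and Rps12, Rps19, Rps7 and Rpl38 had adjusted p-values of 0.059, 0.13, 0.15 and 0.25. The 20 for the background became 9 with DESeq2, 12 without the second D2 library, and, when the 5-kb bin of the start stood for the anchor, 8 in a fit over the bins of gene starts and 16 in the fit over all bins, which gives the bin values below. The split of calls in D2 against B6 was 5 higher and 3 lower with library totals alone, and 6 and 3 with the trend on abundance removed. No anchor moved by more than 1 on the log2 scale in any of the 6 comparisons, and 59 of the 86 genes were called in none of them by edgeR.

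**Figure D3:**
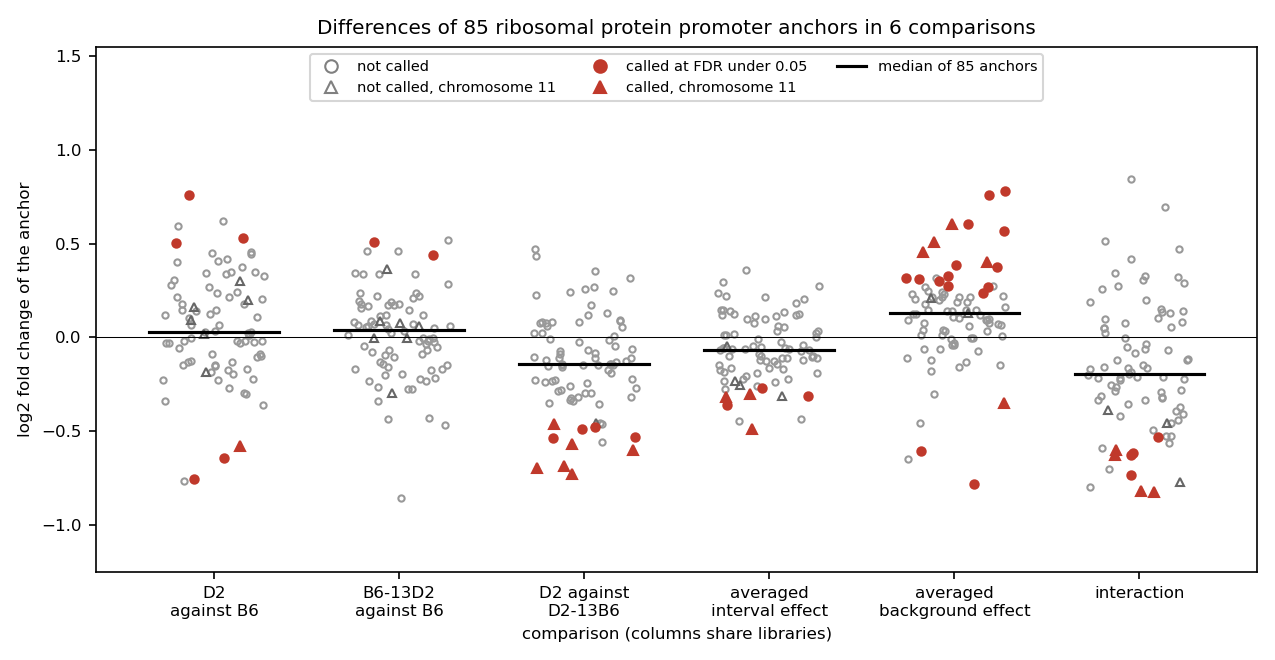
Log2 fold changes of the 85 ribosomal protein promoter anchors in the 6 comparisons. Each point is an anchor, filled red where called at an FDR under 0.05, triangles mark chromosome 11, and the bar is the median; the comparisons share libraries. Called anchors lie on both sides of 0 for D2 against B6 and for the background, and all 10 called for D2 against D2-13B6 lie below 0, 6 of them on chromosome 11.

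Among large subunit genes, the anchor of Rpl28 had the smallest FDR, and it was lower in the D2 background. Its levels were 389.8 and 334 CPM in B6, 355 and 402 in B6-13D2, 199 and 232 in D2 and 271 and 280.1 in D2-13B6. All 4 libraries with the D2 background lay below all 4 with the B6 background. The difference was -0.75 ± 0.12 (SE) in D2 against B6 (FDR 9.5e-07) and -0.61 ± 0.08 for the background (FDR 1.9e-09). The anchor is 45 kb wide (chr7:4785001-4830000) and also holds the starts of Il11, Tmem190, Tmem238 and Ube2s, the last encoding a ubiquitin-conjugating enzyme of the anaphase-promoting complex.

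At the resolution of the 5-kb bins, the bins that passed the test did not include that of the Rpl28 start. The bin of the Rpl28 start (chr7:4790001-4795000) had 38.9 and 36.0 CPM in B6 and 37.2 and 37.7 in D2, and its background difference was 0.19 ± 0.13 (FDR 0.30 over 42062 tested bins, of which 23.9% were called). The 4 bins from 4810001 to 4830000, the first of which holds the start of Ube2s, had background differences of -1.01, -1.61, -1.99 and -1.18, with FDRs of 9.9e-12, 5.2e-20, 2.2e-24 and 4.8e-10, and the bin before them had -0.36 (FDR 0.029). In the bin at 4820001 the counts were 122 and 75 in B6, 127 and 164 in B6-13D2, 10 and 31 in D2 and 47 and 52 in D2-13B6. The fit over all bins was chosen after the anchor results were seen.

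Rpl38, a large subunit protein known for its part in the translation of Hox mRNAs, was also lower in D2 than in B6. Its anchor had 76.1 and 51.9 CPM in B6 and 46.1 and 40.5 in D2, a difference of -0.58 ± 0.19 (FDR 0.033). The congenic lines lay at 54.0 and 73.7 CPM (B6-13D2) and 62.0 and 57.3 (D2-13B6), and overlapped B6. The bin of the Rpl38 start did not pass the test (0.34 in D2 against B6, FDR 0.64, beside 9.49% of all bins called), and of the other 3 bins the one farthest from it, at 114680001, did (-0.99, FDR 0.013). Without the first B6 library the anchor's difference was -0.26 (FDR 0.63), without the first D2 library -0.68 (FDR 0.12) and without the second D2 library -0.49 (FDR 0.28). It also missed the threshold without either D2-13B6 library (FDR 0.053 and 0.052).

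Rps7, a small subunit protein that also binds MDM2, was lower in the D2 background at the start itself. Its anchor (chr12:28625001-28640000) had 80.4 and 61.0 CPM in B6, 72.6 and 89.4 in B6-13D2, 41.4 and 50.2 in D2 and 38.1 and 48.5 in D2-13B6. The backgrounds did not overlap. The background difference was -0.78 ± 0.12 (FDR 2.0e-07), and that of D2 against B6 was -0.65 ± 0.19 (FDR 0.011). In the bin of the start the background difference was -1.01 ± 0.15 (FDR 8.9e-09), with counts of 72 and 58 in B6, 74 and 139 in B6-13D2, 35 and 38 in D2 and 43 and 61 in D2-13B6. The D2 against B6 difference was -0.42 (FDR 0.33) without the first B6 library and -0.51 (FDR 0.22) without the first D2 library.

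Rpl39l, the testis-enriched paralog of the X-linked Rpl39, was higher in the D2 background, and it is alone in its anchor (chr16:10165001-10180000). The levels were 38.7 and 47.4 CPM in B6, 50.2 and 40.1 in B6-13D2, 76.2 and 68.2 in D2 and 72.7 and 78.2 in D2-13B6. All 4 D2-background libraries lay above the other 4. The difference was 0.76 ± 0.12 for the background (FDR 3.3e-07) and 0.76 ± 0.18 in D2 against B6 (FDR 0.0018). The bin of the start, which holds the printed promoter, had the same order: 19 and 20 counts in B6, 28 and 29 in B6-13D2, 51 and 46 in D2 and 66 and 85 in D2-13B6, a background difference of 1.27 ± 0.18 (FDR 2.1e-09). In D2 against B6 the anchor's FDR was 0.087 without the first B6 library and 0.069 without the first D2 library. The parent gene Rpl39 was not called in any comparison.

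**Figure D4:**
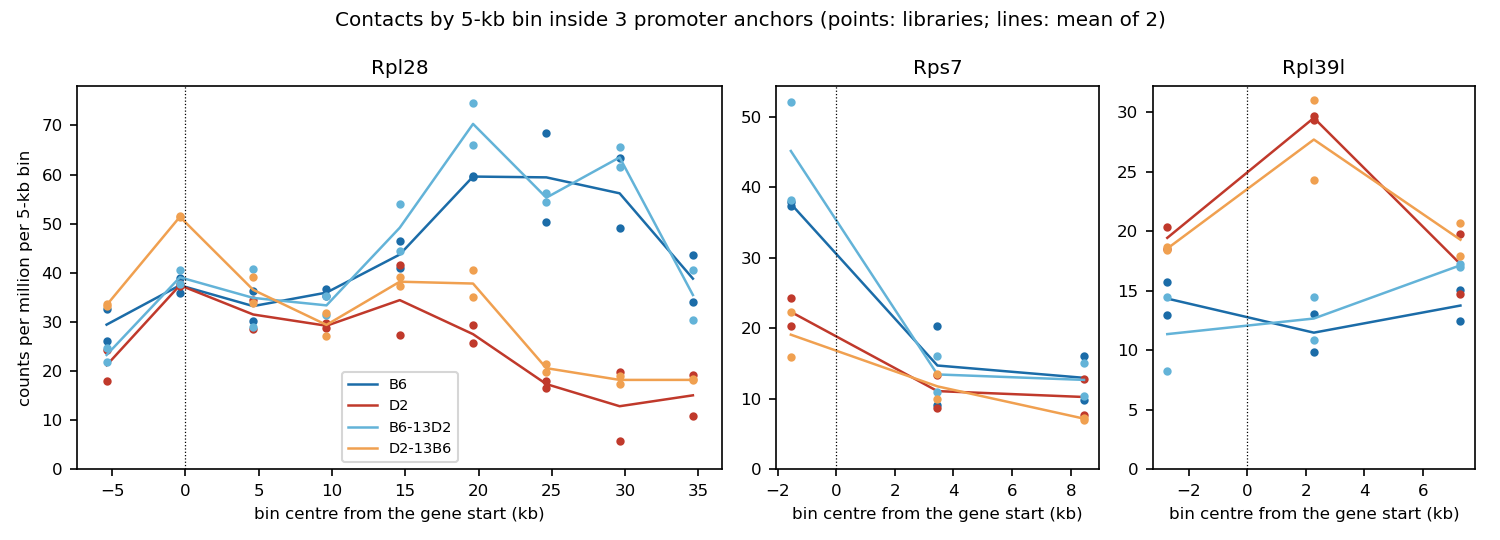
Level in CPM of each 5-kb bin inside the anchors of Rpl28, Rps7 and Rpl39l, by distance of the bin centre from the gene start in the direction of transcription. Points are libraries and lines the mean of 2. At Rpl28 the backgrounds part about 20 kb downstream, and in the bin of the start B6, D2 and B6-13D2 lie close together (37.4, 37.5 and 39.1 CPM) with D2-13B6 above them (51.4 CPM), while at Rps7 and Rpl39l they part at the bin of the start.

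Higher levels in the D2 background at small subunit genes were found for Rps19 and Rps12. Rps19, the gene most often mutated in Diamond-Blackfan anaemia, had 69.4 and 55.0 CPM in B6, 63.3 and 78.3 in B6-13D2, 95.5 and 85.5 in D2 and 112 and 117 in D2-13B6. Its background difference was 0.61 ± 0.11 (FDR 4.0e-06), and 3 of the 4 bins of the anchor were called, that of the start included. In D2 against B6 the difference was 0.53 ± 0.16 (FDR 0.020), and it missed the threshold without the second B6 library (0.39, FDR 0.17), the first D2 library (0.45, FDR 0.21) and the second D2 library (0.61, FDR 0.062).

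Rps12 had 96.4 and 102 CPM in B6, 123 and 127 in B6-13D2, 129.6 and 152 in D2 and 156 and 146 in D2-13B6. The backgrounds did not overlap, and the background difference was 0.38 ± 0.09 (FDR 0.00086). Contacts inside the 35-kb anchor, which also holds the start of Slc18b1, made up 71.4% of its counts, the highest share among the 86 genes. Without them the background difference was 0.18 (FDR 0.37). In D2 against B6 the difference was 0.50 ± 0.14 (FDR 0.0095), and it was 0.21 (FDR 0.61) without the contacts inside the anchor, 0.46 (FDR 0.098) without the first B6 library and 0.39 (FDR 0.21) without the second D2 library. Rps19bp1, which shares its anchor with the stress-response gene Atf4, was also higher in the D2 background by 0.37 ± 0.09 (FDR 0.0011), with 109 to 122 CPM in the 4 B6-background libraries and 133 to 154 in the others.

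Of the 78 ribosomal protein anchors off chromosome 11, B6-13D2 against B6 called 2, both higher, and D2 against D2-13B6 called 4, all lower. Over all 19551 anchors off chromosome 11, the first called 687 higher and 350 lower, and the second 307 and 393. In B6-13D2 against B6, 2 of 85 were called, both higher, beside 5.25% of all anchors called, 3.47% called higher, and 5.44% of other protein-coding anchors called. With the trend on abundance removed neither was called by edgeR (13 of 85 at an unadjusted p under 0.05, and 1 called by DESeq2), and with library totals alone 1 was. Over all anchors, 735 were called higher and 379 lower, against 428 and 578 with library totals alone and 426 and 407 with the trend removed. Rps28 had 284 and 244 CPM in B6 and 339.8 and 375 in B6-13D2, a difference of 0.44 ± 0.11 (FDR 0.0096). Rps29, a zinc-binding protein of the small subunit, had 85.3 and 84.3 CPM in B6 and 137 and 107 in B6-13D2, a difference of 0.51 ± 0.14 (FDR 0.021). Without the second B6 library the FDR was 0.10 for Rps28 and 0.062 for Rps29, without the second B6-13D2 library 0.14 for Rps28, and for Rps29 0.093 without the first B6 library and 0.33 without the first B6-13D2 library. Rps23, the 1 ribosomal protein gene on chromosome 13, had 10.4 and 9.79 CPM in B6, 15.5 and 13.8 in B6-13D2, 10.7 and 11.2 in D2 and 9.75 and 13.3 in D2-13B6, and was not called. None of the 4 X-linked genes was called, with differences of -0.80 to 0.34 over the 6 comparisons.

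In D2 against D2-13B6, 10 of 85 anchors were called, all lower in D2, beside 5.69% of all anchors called, 4.24% called lower, and 6.89% of other protein-coding anchors called. Of these, 6 lie on chromosome 11, where other anchors were lower in D2 too: the median of the 709 other protein-coding anchors there was -0.48. The 7 ribosomal protein anchors of chromosome 11 ran from -0.73 to -0.46. Rpl27 had 238 and 228 CPM in D2 and 388 and 384 in D2-13B6 (-0.73 ± 0.12, FDR 3.1e-06). Rpl19 (-0.69, FDR 0.00012), Rpl23 (-0.60, FDR 0.00016) and Rpl23a (-0.57, FDR 0.00034) followed. When each chromosome was scaled to its own total, their differences were -0.25, -0.21, -0.12 and -0.09, and none of the 7 was called by edgeR (1 of 7 at an unadjusted p under 0.05). Rpl23 had 176 and 163 CPM in B6, 146 and 190.2 in B6-13D2, 216 and 202 in D2 and 316 and 319.6 in D2-13B6. Its background difference was 0.60 ± 0.09 (FDR 1.6e-08), and 0.36 (FDR 0.00045) with that scaling.

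Off chromosome 11 the strongest of that comparison was Rpl7l1, with 559.9 and 565 CPM in D2 and 791 and 837 in D2-13B6, a difference of -0.53 ± 0.11 (FDR 0.00029). Removing the trend of the differences with abundance brought it to -0.21 (FDR 0.12), and without the first D2 library its FDR was 0.052. With that trend removed, none of the 78 ribosomal protein anchors off chromosome 11 was called by edgeR (10 at an unadjusted p under 0.05), against 4 without that step. Scaling by library totals alone moved the median of all anchors from 0.03 to 0.15 and that of the ribosomal protein anchors from -0.14 to -0.02, and the split of their calls became 1 higher and 7 lower. Over all anchors the split went from 308 higher and 899 lower to 657 and 509, and to 386 and 544 with the trend removed. The averaged interval effect called 6 of 85, all lower with the D2 allele, beside 6.15% of all anchors called, 3.25% called lower, and 6.29% of other protein-coding anchors called, with 3 of the 6 on chromosome 11; with library totals alone the split was 1 higher and 7 lower. Among the 6, the 4 D2-allele libraries lay below the other 4 at 1 anchor, that of Rpl8, with 114 and 101 CPM in D2, 104 and 109 in B6-13D2, 115 and 121 in B6 and 152 and 149 in D2-13B6 (-0.31 ± 0.09, FDR 0.031). Leaving out 1 library gave an FDR of 0.051 to 0.18 for every library but the second of B6-13D2 (0.042), and DESeq2 gave 0.11.

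The interaction asks whether the interval effect differed between the backgrounds, and its sign is that of B6 and D2 against the congenic lines. It called 8 of 85 anchors, all negative, beside 4.74% of all anchors (3.69% negative) and 6.25% of other protein-coding ones, with 4 of the 8 on chromosome 11. The median was -0.20 over the ribosomal protein anchors, -0.06 over other protein-coding anchors and 0.03 over all. With library totals alone these medians were 0.02 for the ribosomal protein anchors and 0.24 for all, and 2 ribosomal protein anchors were called. Over all anchors, 222 were called positive and 783 negative, against 504 and 291 with library totals alone and 188 and 177 with the trend on abundance removed. Both congenic lines were sequenced more deeply than B6 and D2, so depth and the interaction cannot be told apart.

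Single loops were tested where at least 2 libraries had at least 5 counts, which left 759 ribosomal protein loops of 44706. In D2 against B6, 11 were called (5 higher, 6 lower), beside 2.65% of all loops (1.38% higher, 1.26% lower) and 2.10% of loops of other protein-coding anchors. The background effect called 45 (31 higher, 14 lower), beside 8.85% of all loops and 7.18% of loops of other protein-coding anchors. The shares among ribosomal protein loops, 1.45% and 5.93%, were below both. By direction, 4.28% of all loops were called higher and 4.57% lower. The averaged interval effect called 3 ribosomal protein loops, all lower with the D2 allele, beside 0.989% of all loops (0.544% lower). With DESeq2 the counts were 2, 12 and 1.

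The loop first in order of FDR for the background spanned 390 kb between an anchor without a protein-coding start (chr4:3430001-3435000) and the anchor of Rps20 (chr4:3805001-3840000). It had 14 and 16 counts in D2 and 15 and 15 in D2-13B6, but 1 and 1 in B6 and 0 and 0 in B6-13D2. The ratio of count rates between the backgrounds was 27.8 (exact 95% interval 7.36 to 235, counting error only). The loop reached the count minimum through the D2-background libraries alone, so a difference was bound to appear among such loops. Its FDR, the ratio and the interval are given no weight. Of the 62 counts, 51 joined 1 pair of bins, and the bin on the Rps20 side (chr4:3820001-3825000) lies 10665 bases from the Rps20 start and beyond the 3′ end of the gene. The distant anchor had 6 loops in all, so nearly all of its counts in the D2-background libraries belonged to this one. The anchor of Rps20 itself, at 47.6 to 68.8 CPM in the 8 libraries, was not called in any comparison.

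Loops of the Rpl28 anchor made up 6 of the 45. Its contacts inside the anchor had 173 and 120 counts in B6, 175 and 257 in B6-13D2, 62 and 72 in D2 and 146 and 158 in D2-13B6, a background difference of -0.89 ± 0.12 (FDR 2.8e-12). The loop from it to Isoc2b and Isoc2a, 67.5 kb away, had 62 and 39 counts in B6, 43 and 93 in B6-13D2, 24 and 21 in D2 and 32 and 26 in D2-13B6 (-1.26 ± 0.18, FDR 5.4e-10). The loop to Gm36210, 92.5 kb away, differed in D2 against B6, with 5 and 15 counts in D2 and 43 and 34 in B6 (-1.84 ± 0.35, FDR 2.4e-05), and without the first D2 library the difference was -1.19 (FDR 0.11). The anchor of Rps7 contacted that of Rnaseh1, which encodes an RNase that removes RNA from RNA-DNA hybrids, less in the D2 background: 81 and 53 counts in B6 and 77 and 126 in B6-13D2, against 28 and 35 in D2 and 45 and 63 in D2-13B6 (-1.07 ± 0.15, FDR 6.4e-10).

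The anchor of Rps19 and an anchor 35 kb away that holds no protein-coding start had more contacts in the D2 background, with 38 and 43 counts in D2 and 85 and 92 in D2-13B6 against 33 and 13 in B6 and 24 and 46 in B6-13D2 (1.00 ± 0.18, FDR 1.9e-06). The same held for Rpl39l and an anchor without a protein-coding start 42.5 kb away, with 47 and 39 counts in D2 and 71 and 58 in D2-13B6 against 24 and 16 in B6 and 34 and 28 in B6-13D2 (1.00 ± 0.19, FDR 7.5e-06). The loop of 117.5 kb between Rpl19 and an anchor without a protein-coding start was the 1 interval loop in which all libraries separated by allele after scaling to depth. It had 6 and 6 counts in D2 and 5 and 13 in B6-13D2, against 19 and 8 in B6 and 28 and 29 in D2-13B6 (-1.23 ± 0.31, FDR 0.014). The counts overlap, while in CPM the highest library with the D2 allele, at 9.60 in B6-13D2, lay just below the lowest with the B6 allele, at 10.6 in B6. It lies on chromosome 11, and its FDR was 0.42 without the first B6 library, 0.093 without the first D2 library, 0.076 without the second and 0.11 without the first B6-13D2 library.

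Few loops were called where the background was fixed. D2 against D2-13B6 called 5, all lower in D2, beside 0.91% of all loops (0.722% lower). Of these, 3 lie on chromosome 11, 2 at Rpl27 and 1 at Rpl23, where the other protein-coding anchors were lower in D2 too (the median of -0.48 given above). The smallest FDR was that of the contacts inside the anchor of Rpl7l1, with 373 and 351 CPM in D2 and 549.5 and 566 in D2-13B6 (-0.62 ± 0.12, FDR 0.00012). B6-13D2 against B6 called 1, higher, beside 0.879% of all loops (0.561% higher). It was the contacts inside the anchor of Rps28, with 72 and 50 counts in B6 and 115 and 148 in B6-13D2 (0.68 ± 0.19, FDR 0.035). Leaving out either library of B6, B6-13D2 or D2-13B6 gave it an FDR of 0.055 to 0.25. The interaction called 2, both negative, beside 0.602% of all loops (0.548% negative).

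**Figure D5:**
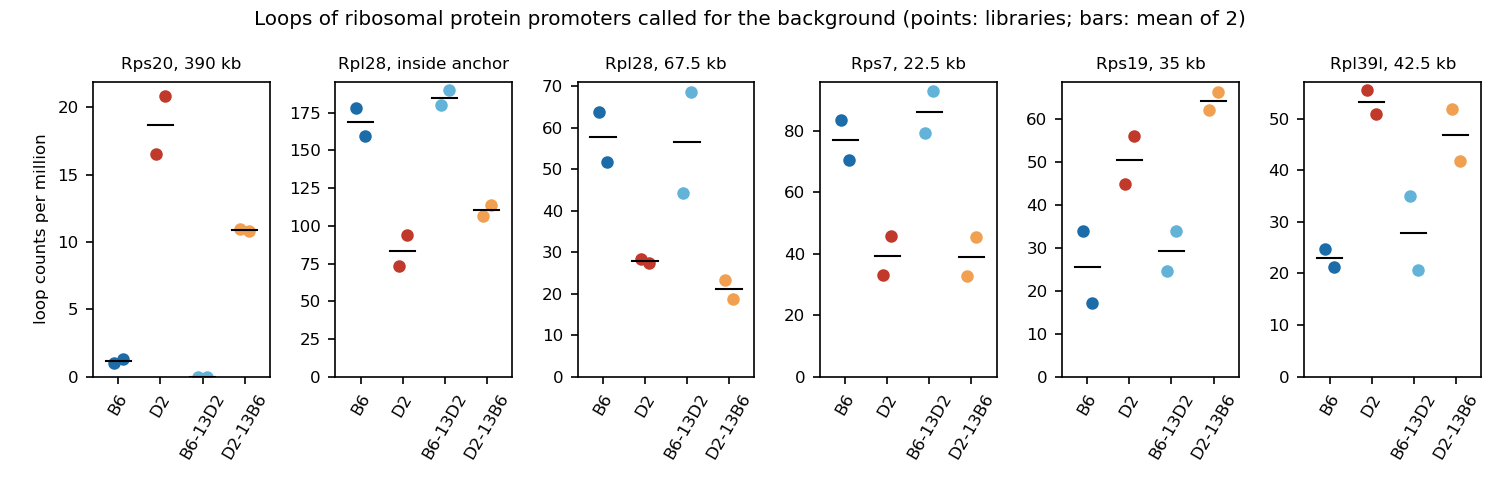
Level in CPM of the 6 ribosomal protein loops named for the background effect, by line. Points are libraries and bars the mean of 2, and each title gives the gene and the distance between the anchors. In all 6 panels the libraries of D2 and D2-13B6 lie on one side of those of B6 and B6-13D2, because only called loops with this separation were named. The Rps20 loop also reached the count minimum through the D2-background libraries alone.

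The background effect in other lists of genes for the making and turnover of proteins is given for comparison, with no test between lists. Mitochondrial ribosomal protein anchors were called for 20.9% of 67 tested, proteasome anchors for 20.6% of 34, translation factors for 22.6% of 62 and ribosome biogenesis genes for 25% of 40, against 23.5% for the 85 ribosomal protein anchors. The medians of their background differences were 0.08, 0.12, 0.11 and 0.15. Among other genes with TOP mRNAs, 7 of 15 anchors (46.7%) were called, 6 higher and 1 lower, with a median of 0.16. Among regulators of ribosomal protein genes, 3 of 13 (23.1%) were called, all higher, with a median of 0.20. By group, 19.6% of large subunit anchors, 19.4% of small subunit anchors and 44.4% of the 9 paralog anchors (4) were called, beside the 24.8% of all anchors. The paralogs called were Rpl39l, Rpl36al, Rps27l and Rps27rt, and 2 of these, Rps27l and Rps27rt, had mean levels under 20 CPM.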

How the data were processed

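H3K27ac MNase HiChIP was done with paired reads of 150 bases. The deposited table, made by the authors, holds the count of read pairs for each of 415681 loops in 8 libraries, on mm10. Per the submitters' processing notes, BWA 0.7.18, SAMtools 1.19.2 and edgeR 3.34.1 were used, and the loop caller is not given in the sources used here. The build mm10 is the C57BL/6J genome, and how D2 variants affect mapping and so the counts was not tested. Deposited counts per library and pair of 5-kb bins gave the values of bins.

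Here, gene starts came from the GRCm38 annotation (GENCODE M21). An anchor belonged to a gene if it lay within 5 kb of the start. Counts were summed per anchor. Anchors with at least 10 counts in 2 libraries and loops with at least 5 in 2 were tested with edgeR 4.0.16 (quasi-likelihood, TMM factors, R 4.3.3): 1 fit over 8 libraries with a mean per line, and Benjamini-Hochberg adjustment over every anchor or loop. DESeq2 1.42.0, other scalings (library totals, RLE factors, factors per chromosome, a loess trend on abundance), filters, windows and leaving out each library were alternatives. The tests were tried on simulated data.

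The labels do not say whether replicate numbers pair the libraries. Differences between replicates correlated at -0.15 to 0.03 between lines, which shows no strong shared shift but cannot exclude a pairing. Replicates of a line correlated at 0.975 to 0.988 over ribosomal protein anchors, and differed by more than counting noise (chi-square per degree of freedom 1.05 to 1.21). Intervals cover counting error only.

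The genes and lists were chosen with earlier results of these data known. Named anchors and loops are those called in which the libraries of both sides do not overlap (the 5 anchors and 3 loops of smallest FDR per direction), the 5 highest and 3 lowest levels, the 5 strongest loops between ribosomal protein anchors and the 5 strongest of at least 100 kb. Other loops and bins were named after their values were seen. Some of the genes this rule takes are not reported here.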

Additional observations from a re-analysis of the deposited data

Results flagged for a closer look

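At 8 ribosomal protein anchors the interval effect differed between the backgrounds by the test of the interaction itself (edgeR, FDR under 0.05 over all anchors). That is 9.41% of 85, beside 4.74% of all anchors and 6.25% of other protein-coding ones. With library totals alone 2 were called, and since both congenic lines were sequenced more deeply, depth and this contrast cannot be told apart. The interaction was -0.83 at Rps27a, with 116 and 105 CPM in B6, 129.6 and 118 in D2, 157 and 130.3 in B6-13D2 and 168 and 172 in D2-13B6, so that B6 and D2 lay below both congenic lines (FDR 0.0023). It was -0.63 at Rps28, also with both parental lines below the congenic ones (FDR 0.0086). The others were -0.82 at Rpl27, -0.62 at Rpl3, -0.63 at Rpl23a, -0.73 at Rps29, -0.53 at Rpl7l1 and -0.60 at Rpl23. Rps27a, Rpl27, Rpl23a and Rpl23 lie on chromosome 11, and with a scaling per chromosome their values were -0.38, -0.37, -0.18 and -0.15, none past the threshold. With the trend on abundance removed none of the 8 passed, and the values ran from -0.55 at Rps27a to 0.0061 at Rpl7l1. Leaving out 1 library ended the call for at least 1 library at Rps28, Rpl3, Rpl23a, Rps29, Rpl7l1 and Rpl23, and for none at Rpl27 and Rps27a.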

How the results depend on the processing

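Over 46 named or called results and 683 alternative values, 558 kept their direction and side of the threshold, 124 kept the direction but missed the threshold and 1 reversed: the interaction at Rpl7l1 was 0.0061 (FDR 0.99) with the abundance trend removed. The 558 include 12 values for D2 against B6 and 13 for the background from the Rps20 loop, whose FDR is given no weight above. The background calls of Rpl28, Rps7, Rpl39l, Rps19, Rpl23 and Rps19bp1 held in each alternative run on anchors. For the bin of the start, Rpl28 was not called in the fit over gene-start bins (0.11, FDR 0.66) or over all bins (0.19, FDR 0.30), and Rps19bp1 missed the threshold in the first (0.34, FDR 0.10) and passed it in the second (0.43, FDR 0.019). The cause of the changes below was not tested. The start-bin fits tested 82 bins in place of 85 anchors, and the 20-kb window takes other anchors too. Shares over all anchors under each setting are not set beside these counts, so they do not show a change particular to ribosomal protein genes. Of called ribosomal protein anchors in D2 against B6 (6), there were 2 with DESeq2, 10 within 20 kb and 3 for the 5-kb bin of the start (5 in the fit over all bins). In B6-13D2 against B6 (2), there were 1 with library totals, 0 with the trend removed (edgeR, 13 at an unadjusted p under 0.05), 1 with DESeq2 and 0 for the start bin in either fit (edgeR, 5 at an unadjusted p under 0.05 in each). In D2 against D2-13B6 (10), there were 3 with factors per chromosome, 5 with the trend removed, 6 for the start bin (7 over all bins) and 4 off chromosome 11. For the interval (6), there were 1 per chromosome, 2 with DESeq2, 10 within 20 kb, 3 for the start bin (4 over all bins) and 3 off chromosome 11. For the background (20), there were 9 with DESeq2 and 8 for the start bin (16 over all bins). For the interaction (8), there were 2 with library totals, 4 per chromosome, 0 with the trend removed (edgeR, 8 at an unadjusted p under 0.05), 5 for the start bin in either fit and 4 off chromosome 11. Of called loops, DESeq2 gave 2 of 11 in D2 against B6, 1 of 3 for the interval and 12 of 45 for the background, and a minimum of 2 counts gave 6 and 29 in the first and last. The median level of 65.0 CPM was 55.3 without contacts inside an anchor. The share of contacts at 100 kb or more, 39.0%, was 48.8% without those contacts, and 12.2% lay at 500 kb or more.

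Leaving out 1 library in turn gave 2 to 8 anchors in D2 against B6, 0 to 2 in B6-13D2 against B6 (0 without the second B6 library, edgeR, 7 at an unadjusted p under 0.05), 4 to 12 in D2 against D2-13B6, 1 to 10 for the interval, 12 to 22 for the background and 2 to 10 for the interaction. For loops the ranges were 3 to 12 in D2 against B6, 0 to 5 for the interval and 29 to 40 for the background. The median level ran from 62.9 to 66.3 CPM and the share at 100 kb or more from 38.7% to 39.3%. With the replicate number as a block, the anchor counts were 6, 2, 10, 4, 16 and 6 in the order above, and the loop counts 10, 3 and 40. Depth limits single loops: 759 of 4366 ribosomal protein loops reached the count minimum. Counts off chromosome 11 and the fit over all bins were chosen after seeing the data.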
